A study of Mus musculus with 4 samples.

Results

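Osteopontin (Spp1), Gpnmb, the galectins Lgals3 and Lgals1, and the adhesion receptor Cd44 were followed through CD45-positive cells of 2 brain regions, thalamus and hippocampus (HPC), after an injury to the cortex of the mouse. These are 5 of the 32285 genes counted, found by symbol in every deposited matrix. They were chosen by their levels in these same cells, among them the difference of Spp1 between the regions, so their levels and fold changes are a description and carry no test. All mice were C57B6/J and all were injured, so no uninjured control stands beside either region. Per the study's methods the injury was a unilateral ablation of the cortex, and cells of 4 mice were pooled per region. The labels list 4 Cell Multiplexing Oligos, DNA tags that mark the cells of a source, for each region. Age and time after injury are not given for these samples in the labels. The data were 8 matrices, 4 tagged sets per region, each taken as 1 mouse, which the labels do not state. Each region was a single-cell library of its own (10x Genomics, 3' chemistry), and effects of region and of library cannot be told apart.

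Osteopontin is a secreted phosphoprotein of bone matrix that macrophages and reactive microglia also release. It binds αv and α4 or α9 integrins on other cells and is a ligand of Cd44, whose main ligand is hyaluronan. Gpnmb is a transmembrane glycoprotein of lysosomes and the cell surface, made by phagocytes and melanocytes and regulated by the MiT/TFE transcription factors. Galectins bind β-galactosides: galectin-3 (Lgals3) is abundant in phagocytes and gathers at damaged lysosomes, and galectin-1 (Lgals1) is made by many cell types, activated lymphocytes included. In mouse brain, Spp1, Gpnmb and Lgals3 are known as genes of disease-associated microglia (DAM), the reactive state first described in Alzheimer's disease models. Homeostatic microglia (HM) express little of them.

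In the GENCODE M21 annotation of GRCm38 all 5 are protein-coding. Spp1 (ENSMUSG00000029304) lies at chr5:104435118-104441050 on the plus strand, Gpnmb (ENSMUSG00000029816) at chr6:49036546-49070929 on the plus strand, and Cd44 (ENSMUSG00000005087) at chr2:102811141-102901665 on the minus strand. Lgals3 (ENSMUSG00000050335) lies at chr14:47367751-47386160 and Lgals1 (ENSMUSG00000068220) at chr15:78926725-78930465, both on the plus strand. The 250 bases before a RefSeq start of Spp1 (chr5:104434861-104435110) and that of Gpnmb (chr6:49036268-49036517), build GRCm38.p6, are shown because these genes had the largest difference between the regions in microglia. Capitals mark the letters found in a search on both strands for the PU.1 core GAGGAA and the RUNX motif ACCACA, names of factor families known from myeloid cells.
Spp1: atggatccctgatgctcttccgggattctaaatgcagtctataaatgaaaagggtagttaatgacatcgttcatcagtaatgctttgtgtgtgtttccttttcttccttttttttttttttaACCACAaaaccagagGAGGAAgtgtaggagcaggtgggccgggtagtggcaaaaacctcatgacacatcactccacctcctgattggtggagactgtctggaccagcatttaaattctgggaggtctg
Gpnmb: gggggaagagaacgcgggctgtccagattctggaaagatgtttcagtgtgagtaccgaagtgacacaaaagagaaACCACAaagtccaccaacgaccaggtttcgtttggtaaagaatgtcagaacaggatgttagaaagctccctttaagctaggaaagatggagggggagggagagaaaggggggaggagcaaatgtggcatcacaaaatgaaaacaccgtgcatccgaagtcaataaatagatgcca
Spp1 held ACCACA 128 bases and GAGGAA 113 bases before the start used here, and Gpnmb held ACCACA 175 bases before. Of 32851 RefSeq promoter windows of this length, 23.3% held GAGGAA and 14.0% held ACCACA. The AP-1 motif TGANTCA (6.75% of windows) and the MITF M-box TCATGTG (3.25%) were in neither window. Another RefSeq start of Spp1, with the window chr5:104435942-104436191, is not shown, and that window held none of these motifs.

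The 24939 cells that passed the filters (11537 from the thalamus and 13402 from the HPC) carried 9789875 to 26636526 UMIs per set, with a median of 4262 to 4657 UMIs per cell. A UMI is a molecule counted once by its unique identifier, and levels are UMIs of a gene per 10000 UMIs of all genes, summed over the cells of a set. Within a region no barcode occurred in more than 1 set, and 65 barcodes occurred in both regions. Cells were clustered without the 5 genes and clusters were named from marker genes, each name being written with "-like". P2ry12, a purinergic receptor of microglia, was at 16.3 in microglia-like cells and 1.83 in T- or NK-like cells, whereas the T cell receptor subunit Cd3e was at 0.0338 and 5.29. Microglia-like cells numbered 18724, of which DAM-like cells made up 18.8% to 34.2% per set in the thalamus, against 2.77% to 10.7% in the HPC.

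Spp1 had the most UMIs of the 5 genes in microglia-like cells and was the one that differed most between the regions. In microglia-like cells it was at 93.9, 19.9, 13.8 and 27.2 UMIs per 10000 in thalamus sets 1 to 4, and at 2.25, 0.827, 0.417 and 1.33 in HPC sets 1 to 4. The lowest thalamus set was above the highest HPC set, and thalamus set 1 stood well above the other thalamus sets. The means were 38.7 ± 37.2 in the thalamus and 1.21 ± 0.791 in the HPC (SD, n = 4 sets each), and the fitted log2 fold change (edgeR) was 5.07 (SE 0.776), or 4.10 without thalamus set 1. The share of DAM-like cells was also higher in every thalamus set than in every HPC set, so this value holds the makeup of the microglia as well as the level per cell.

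Spp1 was also detected in T- or NK-like cells, lymphocytes that can make osteopontin once activated. Beside the shares of microglia-like cells with a Spp1 UMI, 59.3% to 73.5% in the thalamus sets, 53.8% to 58.2% of T- or NK-like cells held one, at a median depth of 3409 to 3636 UMIs per T- or NK-like cell. In the HPC the shares were 1.99% to 6.07% and 2.17% to 3.74%. When every cell was thinned to 1500 UMIs, the thalamus shares were 31.3% to 50.8% of microglia-like, 27.4% to 32.1% of T- or NK-like, 24.3% to 30.2% of homeostatic-like and 59.8% to 80.8% of DAM-like cells. Homeostatic-like cells were thus within or below the range of T- or NK-like cells, and DAM-like cells were above it in every set.

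**Figure D1:**
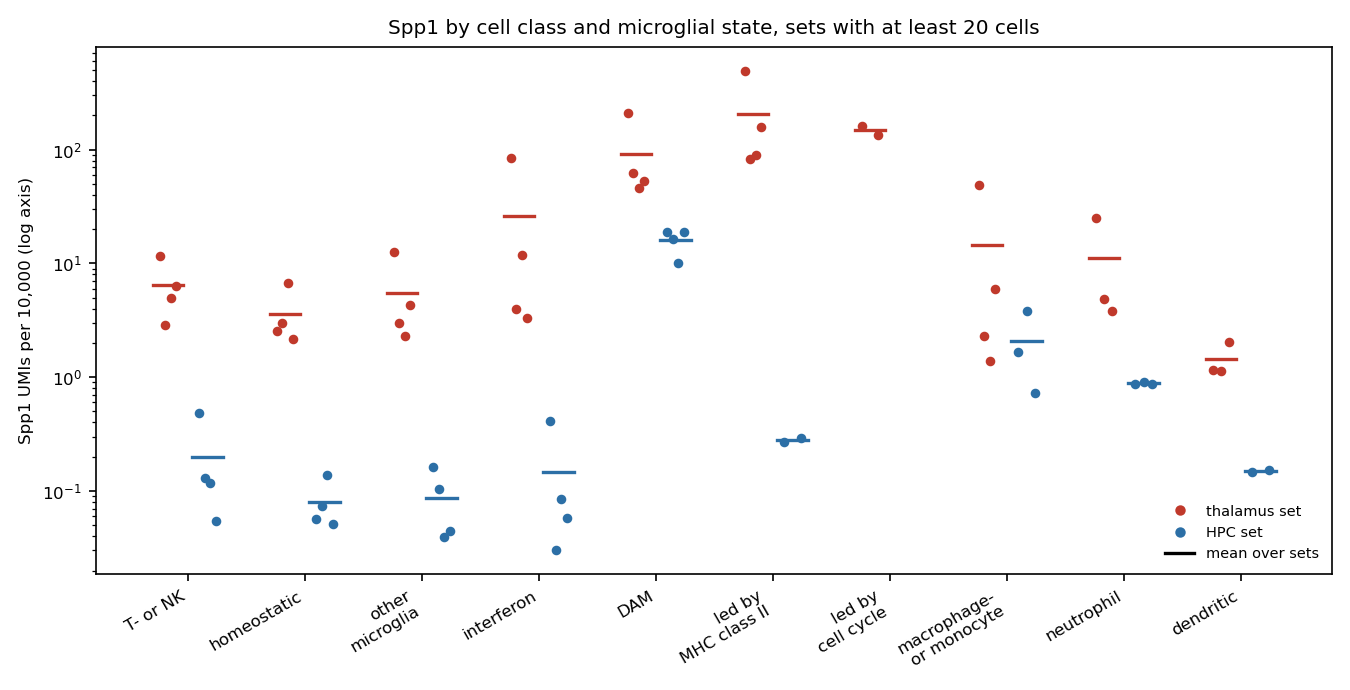
Spp1 UMIs per 10000 (log axis) by cell class and microglial state, with 1 point per tagged set of at least 20 cells (red thalamus, blue HPC) and a bar at the mean. In the thalamus, T- or NK-like sets lie between 2.89 and 11.5, homeostatic-like sets between 2.16 and 6.72, other microglia-like sets between 2.31 and 12.5, and DAM-like sets between 45.9 and 207.

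The level in T- or NK-like cells was 11.5, 2.89, 5.0 and 6.37 UMIs per 10000 in thalamus sets 1 to 4 and 0.488, 0.129, 0.118 and 0.0539 in HPC sets 1 to 4. It was higher in the thalamus by a log2 fold change of 4.52 (SE 0.534), and the thalamus sets were all above the HPC sets, as were those of 2.82% of the 10050 genes in these cells. In homeostatic-like cells Spp1 was at 2.52, 3.01, 6.72 and 2.16 in thalamus sets 1 to 4, against 0.0566, 0.0735, 0.137 and 0.0512 in HPC sets 1 to 4, a log2 fold change of 5.47 (SE 0.328). Relative to T- or NK-like cells of the same set, homeostatic-like cells held 0.219 to 1.34 times as much Spp1 in the thalamus and 0.116 to 1.16 times in the HPC. Few cells weigh heavily on these ratios. In homeostatic-like cells of thalamus set 3, the 5% of cells with the most Spp1 UMIs held 74.2% of them (other thalamus sets 19.8% to 45.0%). In T- or NK-like cells of thalamus set 1 they held 85.3% (others 40.9% to 72.9%). The HPC ratios of sets 3 and 4 rest on 3 and 4 Spp1 UMIs in T- or NK-like cells. After thinning, the share of homeostatic-like cells with a Spp1 UMI lay within or below the range of T- or NK-like cells in both regions. Whether their Spp1 and its fold change reflect expression by homeostatic-like cells was not tested, and neither is read as such. The part of free RNA, or of Spp1 made by T- or NK-like cells themselves, was not tested. The remaining microglia-like cells without a state name numbered 10678, beside 4211 homeostatic-like cells. Their summed homeostatic markers were 79.5 to 103 in the thalamus and 85.9 to 117 in the HPC, against 113 to 125 and 116 to 133 in homeostatic-like cells. The cells without a state name held Spp1 at 2.31 to 12.5 in the thalamus and 0.0393 to 0.162 in the HPC. That was 0.462 to 1.08 and 0.331 to 0.823 times the level of T- or NK-like cells.

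Cells were also split at 10 Spp1 UMIs, after the data had been seen. Because the split uses the Spp1 count itself, it caps the level below it in every group, and nothing is read from how close the groups lie. Among thalamus cells with fewer than 10 Spp1 UMIs, T- or NK-like sets were at 1.97 to 2.24 UMIs per 10000, homeostatic-like sets at 2.07 to 2.17 and the other microglia-like sets at 1.73 to 2.04. In the HPC the same groups were at 0.0539 to 0.129, 0.0207 to 0.0566 and 0.0393 to 0.0732. DAM-like cells below 10 Spp1 UMIs were at 3.81 to 4.40 in the thalamus and 0.822 to 1.21 in the HPC. T- or NK-like cells without a UMI of any of the microglia markers numbered 76 in the thalamus and 50 in the HPC. They held Spp1 at 1.85 to 4.67 in the thalamus sets and had no Spp1 UMI in the HPC, where a count of 0 of 50 cells allows a share of up to 6.0%. Thalamus sets 1 to 4 held 24, 17, 9 and 26 of these cells, with 14, 18, 12 and 20 Spp1 UMIs. Sets 2 and 3 were thus below 20 cells, and the range is uncertain. T- or NK-like cells with 10 or more Spp1 UMIs numbered 44 of 1994 (thalamus) and 4 of 1410 (HPC).

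**Figure D2:**
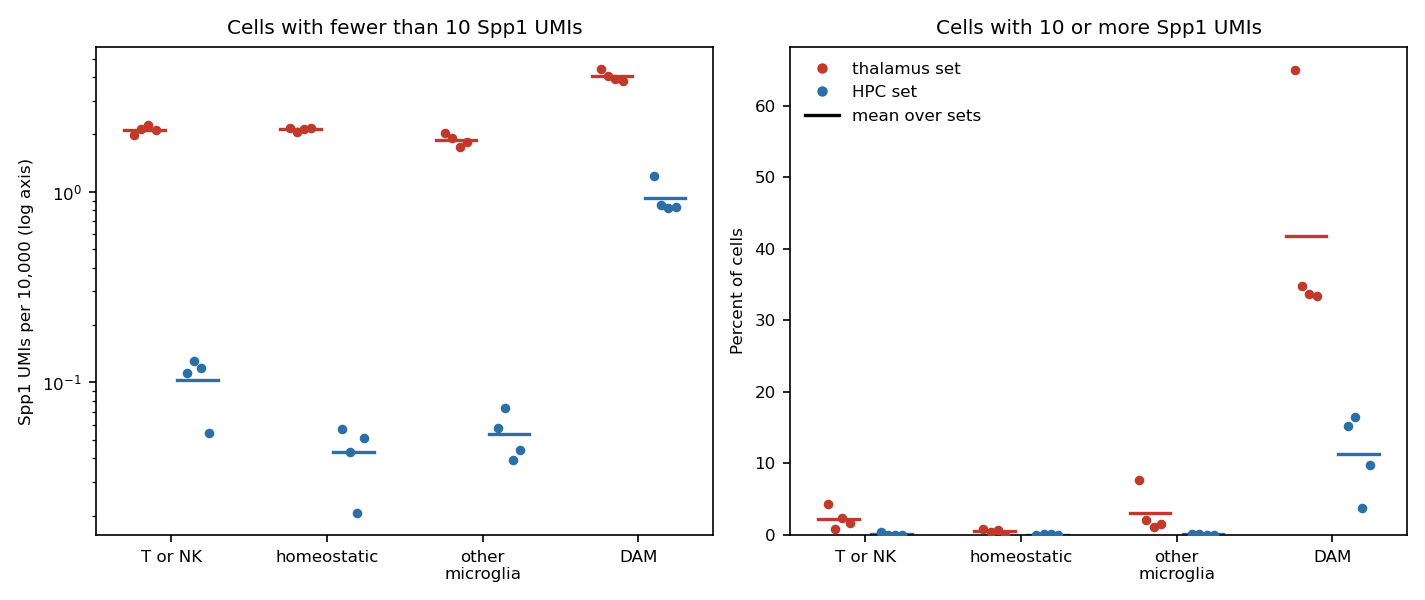
Left, Spp1 UMIs per 10000 (log axis) among cells with fewer than 10 Spp1 UMIs; right, the percent of cells with 10 or more, in 4 groups of cells, with 1 point per tagged set and a bar at the mean. The left panel shows 1.97 to 2.24 for thalamus T- or NK-like cells and 0.0539 to 0.129 in those of the HPC, and the right panel shows DAM-like cells apart from the other groups.

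DAM-like cells, 2003 in the thalamus and 648 in the HPC, carried most of the Spp1. They held 64.0% of the Spp1 UMIs of the thalamus while making up 17.4% of its cells, and 83.2% of those of the HPC at 4.84% of its cells. Their level was 207, 62.0, 45.9 and 52.9 UMIs per 10000 in thalamus sets 1 to 4 and 18.7, 16.3, 10.2 and 18.8 in HPC sets 1 to 4. These ranges did not overlap, and thalamus set 1 was again the highest. The means were 92.1 ± 77.2 and 16.0 ± 4.06 (SD, n = 4 sets each), with a log2 fold change of 2.64 (SE 0.379) and of 1.82 without thalamus set 1. DAM-like cells exceeded T- or NK-like cells of the same set 8.30 to 21.5 times in the thalamus and 38.3 to 348 times in the HPC. The HPC ratios rest on 211, 16, 3 and 4 Spp1 UMIs in the T- or NK-like cells of sets 1 to 4. Their size is therefore uncertain and is not compared with the thalamus. Of the DAM-like cells, 925 in the thalamus and 88 in the HPC had 10 or more Spp1 UMIs, or 33.5% to 64.9% and 3.77% to 16.5% of a set. The summed DAM markers were also higher in DAM-like cells of the thalamus, 311 to 437 UMIs per 10000, than in those of the HPC, 215 to 272, and their part in the difference in Spp1 was not tested.

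The DAM-like cells formed 2 clusters. One, of 866 cells, was poor in the nuclear RNA Malat1 (median 5.42 per 10000 against 176.9 in the other) and shallow (median 2150 UMIs per cell against 6469), and both values touch its RNA quality. In the thalamus its Spp1 was at 456, 144, 120 and 157 in sets 1 to 4, against 133, 50.0, 32.7 and 38.9 in the other cluster. In the HPC sets the other cluster was at 10.5 to 15.9, and the Malat1-poor cluster reached 20 cells in set 1 alone, at 66.8. In every thalamus set the Malat1-poor cells held more Spp1 than the other DAM-like cells, and without them the thalamus sets still lay above all HPC sets.

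Beyond DAM-like cells, Spp1 was high in a cluster led by MHC class II genes in the thalamus and low in the same cluster in the HPC. There it was at 490.2, 81.8, 89.6 and 157 UMIs per 10000 in sets 1 to 4. The HPC sets with at least 20 such cells, sets 2 and 4, were at 0.269 and 0.290. In this cluster 141 of 262 thalamus cells had 10 or more Spp1 UMIs, against 0 of 188 HPC cells, which allows a share of up to 1.6%. The summed DAM markers of the cluster were 293 to 526 in the thalamus and 141 to 172 in the HPC, and the MHC class II genes 54.1 to 135 and 61.5 to 77.8, so the cells grouped by MHC class II genes differed between regions in their DAM markers as well. Cells led by cell cycle genes were at 162 and 134 in thalamus sets 1 and 4, and no HPC set held 20 of them. Interferon-like cells were at 85.0, 3.96, 11.8 and 3.31 in the thalamus, where set 1 was far above the others, and at 0.412, 0.0301, 0.0855 and 0.0575 in the HPC. Macrophage- or monocyte-like cells were at 48.8, 2.31, 1.40 and 5.93 in the thalamus and at 1.67, 3.82 and 0.728 in HPC sets 1 to 3, ranges that overlap.

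The spread of Spp1 over single cells was extreme. The highest cell, a DAM-like cell of the thalamus, held 1388 Spp1 UMIs, or 2388 per 10000. Cells above 100 per 10000 numbered 804 in the thalamus (6.97% of its cells), where they held 85.0% of all Spp1 UMIs, and 40 in the HPC (0.298%), where they held 64.1%. Of these cells 761 and 37 were microglia-like, 547 and 36 DAM-like, and 479 of the 761 came from thalamus set 1. Among microglia-like cells of the thalamus, the 5% of cells with the most Spp1 UMIs held 72.3% of them, a share that ranked 9 among the 3850 genes with at least 0.5 UMIs per 10000, whose median share was 28.7%. Pooling weighs on this share, because the sets differed in level. Taken set by set it was 48.5% in thalamus set 1 and 76.6% to 80.5% in sets 2 to 4. In the HPC too few microglia-like cells held a Spp1 UMI for this measure. Lgals3 had a share of 69.3% in the thalamus, rank 12, and the other members were too low for the comparison.

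Gpnmb followed the same division by state with far fewer UMIs. In microglia-like cells it was at 0.763, 0.348, 0.314 and 0.456 UMIs per 10000 in thalamus sets 1 to 4 and at 0.104, 0.0494, 0.0166 and 0.0391 in HPC sets 1 to 4, with no overlap and a log2 fold change of 3.12 (SE 0.453). Within DAM-like cells it was at 1.87, 1.46, 1.28 and 1.45 in the thalamus and at 0.861, 0.741, 0.441 and 0.445 in the HPC. The regions again did not overlap, and the log2 fold change of 1.24 (SE 0.182) was smaller than over all microglia-like cells and became 0.38 when cells were clustered without integrating the regions. DAM-like cells held 67.4% of the Gpnmb UMIs of the thalamus and 45.0% of those of the HPC, and macrophage- or monocyte-like cells another 15.1% and 43.6%. In the latter Gpnmb was at 0.840, 1.45, 0.0607 and 4.94 in the thalamus and 1.96, 1.23 and 1.02 in HPC sets 1 to 3, so that the regions overlapped widely. T- or NK-like cells had 0.0142 to 0.0918 in the thalamus and at most 0.0161 in the HPC, and homeostatic-like cells had 24 Gpnmb UMIs in all, too few for a fold change.

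Lgals3 was higher in the thalamus in microglia-like cells, and less so within DAM-like cells. It was at 1.35, 0.935, 0.791 and 1.24 UMIs per 10000 in microglia-like cells of thalamus sets 1 to 4 and at 0.372, 0.170, 0.114 and 0.163 in those of HPC sets 1 to 4, a log2 fold change of 2.42 (SE 0.348). Within DAM-like cells the levels were 3.40, 3.57, 3.06 and 3.90 against 2.79, 2.89, 1.90 and 1.93. Here the regions were close, with the lowest thalamus set just above the highest HPC set and a log2 fold change of 0.61 (SE 0.136), which became 0.31 without the Malat1-poor cluster and -0.16 when cells were clustered without integrating the regions. The Malat1-poor cluster held more Lgals3 (7.19 to 9.10 in the thalamus sets) than the other DAM-like cluster (2.15 to 3.24). In homeostatic-like cells Lgals3 was low, 0.113 to 0.126 in the thalamus and 0.0256 to 0.0697 in the HPC (log2 fold change 1.35, SE 0.308). These levels lay below those of T- or NK-like cells, 0.353 to 0.922 and 0.135 to 0.607. Macrophage- or monocyte-like cells, with 7.89 to 21.6 in the thalamus and 5.92 to 13.9 in HPC sets 1 to 3, and dendritic-like cells, with 6.30 to 8.79 and 6.37 to 7.57 in sets of at least 20 cells, held more Lgals3 than DAM-like cells as a whole.

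**Figure D3:**
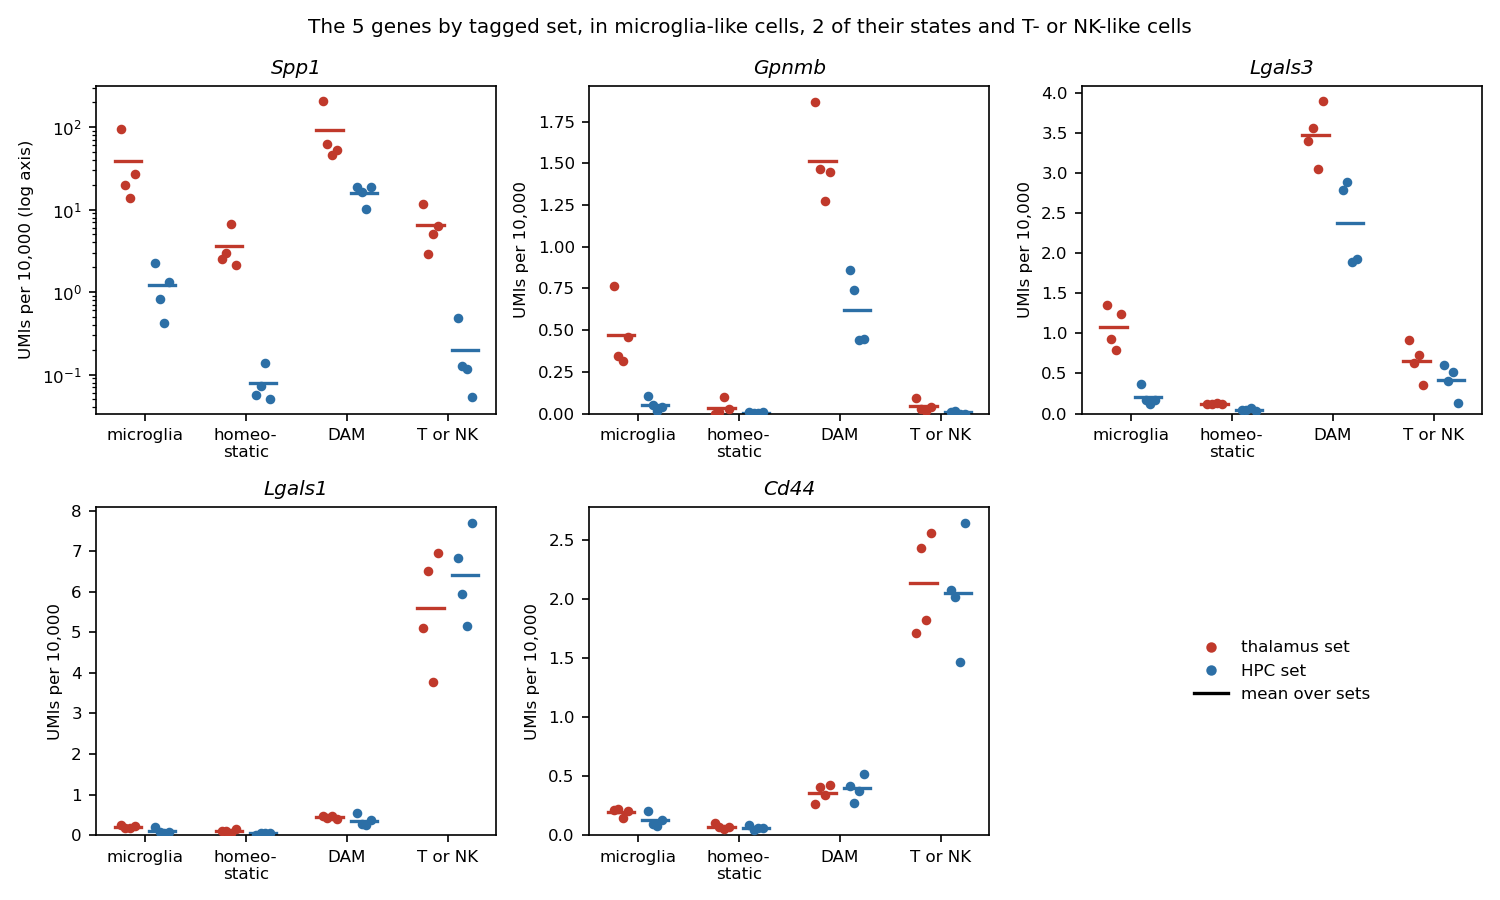
UMIs per 10000 of each of the 5 genes in microglia-like, homeostatic-like, DAM-like and T- or NK-like cells, with 1 point per tagged set and a bar at the mean (red thalamus, blue HPC; the Spp1 axis is logarithmic, the others start at 0). Spp1, Gpnmb and Lgals3 are separated by region in DAM-like cells, whereas Lgals1 and Cd44 overlap there and are highest in T- or NK-like cells.

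Lgals1 and Cd44 were higher in T- or NK-like, macrophage- or monocyte-like and dendritic-like cells than in microglia-like cells, and in neutrophil-like cells Cd44 was higher while Lgals1 was at 0.105 to 0.225 UMIs per 10000 in the thalamus sets. Lgals1 in T- or NK-like cells was at 5.11, 6.51, 3.78 and 6.97 UMIs per 10000 in the thalamus, against 6.85, 5.95, 5.17 and 7.70 in the HPC, and these cells held 68.6% and 73.1% of its UMIs. In microglia-like cells it was at 0.244, 0.178, 0.182 and 0.221 in the thalamus against 0.203, 0.0661, 0.0530 and 0.0822 in the HPC. HPC set 1 overlapped the thalamus, and the log2 fold change was 1.03 (SE 0.380), or 1.72 without HPC set 1. The cluster led by cell cycle genes held 190 of the 597 Lgals1 UMIs of HPC microglia-like cells, at 9.27 UMIs per 10000. It had 22 cells in the HPC, of which 19 were in set 1. Its level of 9.27 was above those of T- or NK-like cells in every HPC set. In its HPC set 1 cells the summed homeostatic markers were at 23.05 and the DAM markers at 90.2 UMIs per 10000. In its thalamus sets, of 11 to 90 cells, they were at 43.5 to 50.7 and 240 to 379. Whether the HPC cells of this cluster are microglia was not tested. Without this cluster, an alternative added after the data had been seen, microglia-like cells had Lgals1 at 0.157 to 0.218 in the thalamus and 0.113, 0.0591, 0.0530 and 0.0663 in HPC sets 1 to 4. The regions then did not overlap, with a log2 fold change of 1.39 (SE 0.241). Within DAM-like cells Lgals1 was at 0.403 to 0.479 in the thalamus and 0.237 to 0.534 in the HPC (log2 fold change 0.20, SE 0.192), a difference within the spread between sets.

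Cd44 was highest in neutrophil-like cells, at 10.1, 8.80 and 9.66 UMIs per 10000 in thalamus sets 1, 2 and 4 and 12.0, 6.70 and 7.52 in HPC sets 1, 2 and 4, those with at least 20 such cells. T- or NK-like cells had 1.71 to 2.56 in the thalamus and 1.46 to 2.64 in the HPC. Macrophage- or monocyte-like cells had 1.74 to 4.23 in the thalamus and 1.41 to 2.01 in HPC sets 1 to 3, ranges that overlap those of T- or NK-like cells. Microglia-like cells had 0.215, 0.223, 0.142 and 0.207 in thalamus sets 1 to 4, against 0.204, 0.0969, 0.0739 and 0.130 in HPC sets 1 to 4, which overlap, with a log2 fold change of 0.67 (SE 0.294). In DAM-like cells Cd44 was at 0.260 to 0.426 in the thalamus and 0.271 to 0.519 in the HPC, and the log2 fold change of -0.10 (SE 0.194) was smaller than its error and turned to 0.04 without thalamus set 1. Homeostatic-like cells were at 0.0488 to 0.0988 and 0.0454 to 0.0849.

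Over the 5 genes, the thalamus sets all lay above the HPC sets for 3 in microglia-like cells (Spp1, Gpnmb and Lgals3), where this held for 8.10% of 12981 genes tested. The same 3 genes did so in DAM-like cells, where it held for 4.18% of 9961 genes, and Spp1 and Lgals3 did so in homeostatic-like cells, where it held for 5.05% of 9567 genes. Since the genes were chosen by these levels, nothing is read from the counts.

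Within single DAM-like cells of the thalamus, Gpnmb, Lgals3 and Lgals1 were found more often where Spp1 was high, whereas Cd44 was not. With each cell thinned to 1500 UMIs, Gpnmb was detected in 4.81% of the 603 cells without a Spp1 UMI, 7.71% of the 700 cells with 1 to 9, and 29.6% of the 619 cells with 10 or more. In single sets the last share was 27.0% to 37.9% and the first 2.78% to 7.63%, so these did not overlap. For Lgals3 the shares were 19.1%, 28.4% and 39.6%, and for Lgals1 3.48%, 5.86% and 10.8%. For Cd44 they were 4.31%, 4.71% and 3.55%, with overlapping set ranges. In the HPC, Gpnmb was detected in 2.44% of 492 DAM-like cells without a Spp1 UMI and in 23.4% of the 47 with 10 or more, of which only set 1 held at least 20 cells. For the same cells Lgals3 went from 14.6% to 51.1% and Lgals1 from 3.86% to 31.9%. Cd44 in the HPC was at 4.07% without a Spp1 UMI, 9.57% of the 94 cells with 1 to 9 and 8.51% of those with 10 or more. At least 3 of the 5 genes were detected together in 8.33% to 11.1% of DAM-like cells of the thalamus sets and 1.96% to 5.13% of those of the HPC sets. Thinned cells all have the same number of UMIs, so a Spp1-rich cell has fewer left for other genes, and the Malat1-poor cells, rich in Spp1 and Lgals3, are among these cells. Their part in these shares was not tested.

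**Figure D4:**
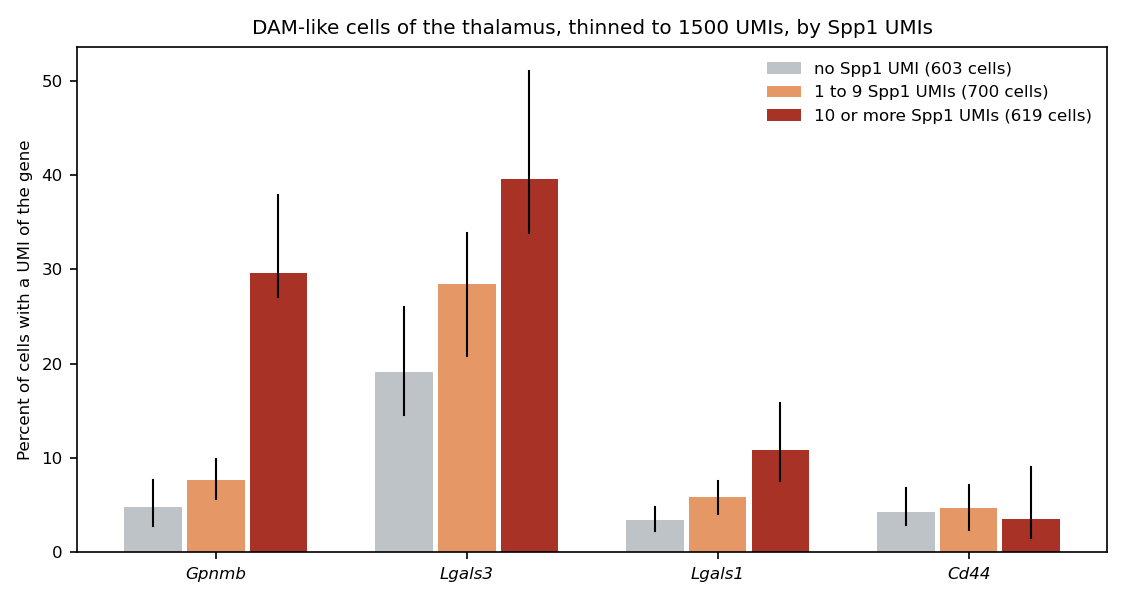
Percent of DAM-like thalamus cells with a UMI of Gpnmb, Lgals3, Lgals1 or Cd44 after thinning to 1500 UMIs, by the number of Spp1 UMIs in the same cell; bars pool the 4 sets and lines span the lowest to the highest set. Gpnmb rises from 4.81% to 29.6% between the outer bins, while Cd44 is at 4.31% and 3.55%.

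Across 67 sums per set and class or state with at least 20 cells, the genes most like each member were found by Pearson's r of log2(CPM + 1), as a description, since the sums share sets, libraries and depth. Nearest to Spp1 were the growth factor Igf1 (r = 0.869), the lipase Lpl (0.798), the protease inhibitor Cst7 (0.768), the chemokine Cxcl14 (0.765) and Baiap2l2 (0.743). Igf1, Lpl and Cst7 were among the markers by which DAM-like clusters were named. Gpnmb also had Igf1 first (0.832), before the endosomal GTPase Rab7b (0.801), the apolipoprotein Apoc4 (0.798), the glutathione peroxidase Gpx3 (0.795) and fibronectin Fn1 (0.792). For Lgals3 they were the fatty acid binding protein Fabp5 (0.856), tropomyosin Tpm4 (0.851), the apoptosis gene Bax (0.843), Wfdc17 (0.843) and the respiratory chain subunit Cox4i1 (0.837). Lgals1 was nearest to Tmsb10 (0.908), Tpt1 (0.905), Psmb1 (0.901), Tagln2 (0.896) and the ribosomal gene Rpl8 (0.896). Cd44 was nearest to the cytoskeletal scaffold Iqgap1 (0.95), the formin Diaph1 (0.932), Dock5 (0.914), H2afj (0.914) and Mrpl33 (0.912). Among the members themselves, over these 67 sums, Spp1 was closest to Gpnmb (0.671) and farthest from Cd44 (0.0837), and Cd44 was closest to Lgals3 (0.668). Over the 40 sums of microglial states alone the order was another. There Spp1 was closest to Lgals3 (0.845), before Gpnmb (0.795), Lgals1 (0.675) and Cd44 (0.558). Cd44 was closest to Gpnmb (0.751) there, before Lgals3 (0.607).

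The partners of these genes were compared between the regions with edgeR's quasi-likelihood test, over sums of counts per tagged set, with p-values adjusted over all genes tested. The 55 genes listed were osteopontin-binding integrin subunits, relatives of Spp1, proteases that cut these proteins, other galectins and their ligands, Gpnmb relatives and MiT/TFE factors, genes of hyaluronan, and adaptors and proteoglycan partners of Cd44. In microglia-like cells 35 of them were tested, 3 rose in the thalamus and 2 fell, against 8.43% and 4.55% of all 12981 genes. The median log2 fold change of the 35 was 0.04, beside -0.01 over all genes. With the set number as a block, 12 rose and 5 fell, against 16.9% of all genes higher and 13% (1690 of 12981) lower in that fit. The block pairs the sets of the regions by number, a pairing taken from these same counts and not given by the labels. Its adjusted p-values may therefore be too small, and a call in both fits is no independent support. In microglia-like cells Malat1 was also lower in every thalamus set (169.8 to 206 UMIs per 10000) than in every HPC set (238 to 254), and the Malat1-poor cluster made up 5.43% to 15.5% of them in the thalamus and 0.314% to 3.22% in the HPC. The part of these values and of the share of DAM-like cells in the calls was not tested. Since the numbers of calls rest on the fit, the genes called in both fits are given first.

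Of the integrin subunits, Itga4, the α4 chain, rose in microglia-like cells, from 0.0598 ± 0.0247 to 0.138 ± 0.0385 UMIs per 10000 (SD, n = 4 sets each; log2 fold change 1.23, SE 0.297, adjusted p = 0.0256). The other 6 subunits tested did not pass, among them Itgav, the αv chain, with a log2 fold change of -0.03 (adjusted p = 0.712). Itgb5, with the most UMIs of those named at 10.6 ± 0.621 and 11.6 ± 0.593, had a log2 fold change of -0.05 (adjusted p = 0.629). With the block, Itga5 also rose (0.20, adjusted p = 0.0433) and Itga9 (-0.43, adjusted p = 2.161e-05) and Itgb1 (-0.12, adjusted p = 0.0270) fell. The mean of Itga4 over sets was below 0.14 per 10000 in microglia-like cells of either region, and its call there did not hold in 6 of 20 alternatives.

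Of 4 proteases tested, Mmp12, the macrophage elastase, rose with a log2 fold change of 2.60 (SE 0.470, adjusted p = 0.00861), from 0.00529 ± 0.00459 to 0.0336 ± 0.00811, a level set by 170 UMIs in all. Of these 150 were in DAM-like cells, where its log2 fold change of 1.07 (SE 0.389) did not pass (adjusted p = 0.134, and 0.0604 with the block). The serglycin gene Srgn, a proteoglycan core of granules, rose by 0.46 (SE 0.0789, adjusted p = 0.00714), from 2.22 ± 0.302 to 2.88 ± 0.0788. The scavenger receptor Stab1 fell by 0.38 on the log2 scale (SE 0.0865, adjusted p = 0.0221), from 1.69 ± 0.196 in the HPC to 1.24 ± 0.112 in the thalamus. Tfe3, a MiT/TFE factor, fell by 0.15 (SE 0.0428, adjusted p = 0.0495), a call that did not hold in 14 of 20 alternatives. Mitf, another factor of this family, had a log2 fold change of 0.43 (adjusted p = 0.127) and rose with the block (0.42, adjusted p = 0.000139). None of 8 other galectins and ligands passed. With the block the galectin-3 binding protein Lgals3bp (0.81, adjusted p = 3.855e-05) and the lysosomal membrane proteins Lamp1 (0.34, adjusted p = 0.00125) and Lamp2 (0.24, adjusted p = 0.00158) rose. The hyaluronan receptor and spindle gene Hmmr, which also led the cell cycle cluster, rose with the block too (2.22, adjusted p = 0.00171), as did Sdc4, Ezr and Msn, while Rdx fell (-0.11, adjusted p = 0.0469). The relatives of Spp1 in the SIBLING family, Ibsp, Dmp1, Mepe and Dspp, had 0 UMIs in microglia-like cells, which allows at most 0.00032 per 10000.

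**Figure D5:**
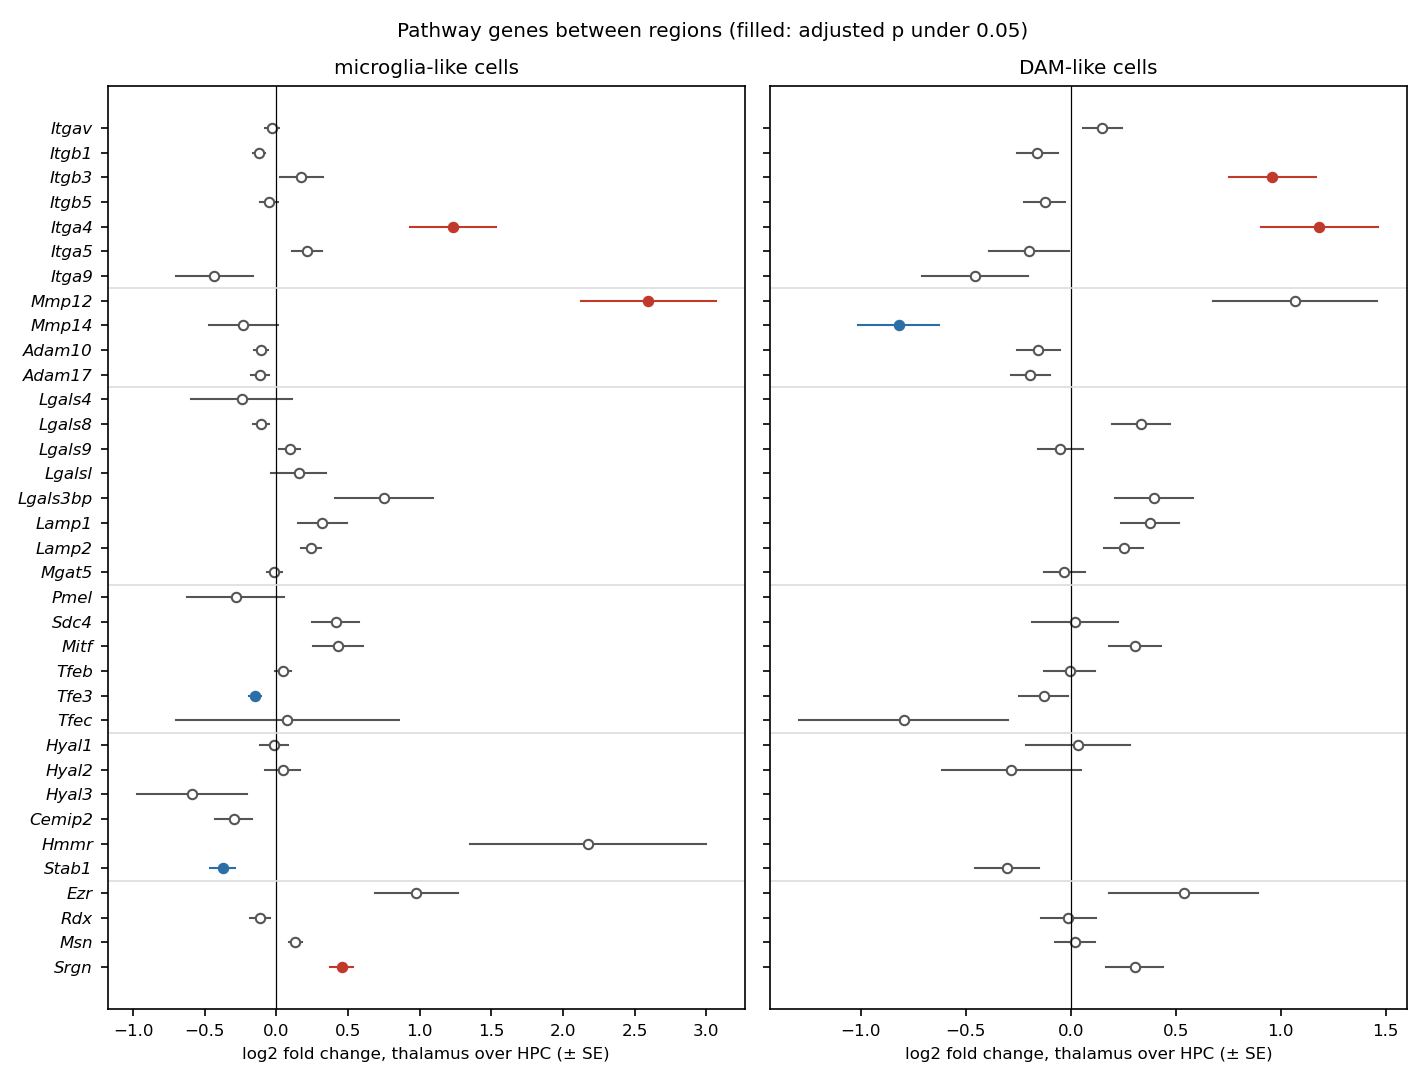
Log2 fold change of the tested pathway genes, thalamus over HPC, with SE, in microglia-like (left) and DAM-like (right) cells; filled points have an adjusted p under 0.05 (edgeR; red higher, blue lower in the thalamus) and grey lines separate the lists. Mmp12, Itga4 and Srgn are filled to the right of 0 on the left, and Itga4 and Itgb3 on the right.

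In DAM-like cells 29 of the 55 genes were tested, 2 rose and 1 fell, against 3.32% and 1.50% of 9961 genes. The median log2 fold change of the 29 was -0.01, as over all genes. Itgb3, the β3 chain that pairs with αv, rose from 0.145 ± 0.0119 to 0.271 ± 0.0467 UMIs per 10000 (log2 fold change 0.96, SE 0.207, adjusted p = 0.0120), and Itga4 from 0.101 ± 0.0700 to 0.272 ± 0.0511 (1.18, SE 0.279, adjusted p = 0.0197). Mmp14, a membrane-bound metalloproteinase, fell by 0.82 on the log2 scale (SE 0.194, adjusted p = 0.0207), from 0.522 ± 0.0710 to 0.296 ± 0.0951. For each of these 3 genes every thalamus set lay on one side of every HPC set. The calls did not hold in 6 of 18 alternatives for Mmp14, 5 of 17 for Itga4 and 3 of 17 for Itgb3. With the block 5 rose and 1 fell, against 5.69% and 2.93% of all genes in that fit, the added genes being Lgals3bp (0.46, adjusted p = 0.00176), Lamp1 (0.40, adjusted p = 0.00729) and Mitf (0.30, adjusted p = 0.0373). When cells were clustered without integrating the regions no gene of the lists passed.

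In homeostatic-like cells 25 of the 55 genes were tested by edgeR and 0 passed in either direction, 2 having an unadjusted p under 0.05 and DESeq2 calling 0, against 2.05% of 9567 genes higher and 0.868% lower. The count was 0 under the block as well, against 3.91% of all genes higher and 2.49% lower in that fit. Itgav (0.04, SE 0.0733), Itgb5 (-0.02, SE 0.0719) and Lgals9 (0.00, SE 0.0844) had log2 fold changes below their errors there.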

How the data were processed

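The deposited matrices hold raw UMI counts for each gene in each cell, not normalized. The authors' processing used Cell Ranger 7.1.0 per the file headers, whereas the methods name an earlier version. The build per the labels was mm10. Whether intronic reads were counted is not given in the sources used here.

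Cells with 200 to 7500 genes and at most 2% mitochondrial counts were kept, as in the study, leaving 24939 of 29190. No doublets were removed. Cells were clustered with Seurat 5.3.0 (R 4.3.3; 2000 variable genes without the 5 members, integration by anchors, 30 dimensions, resolution 0.5), and microglia-like cells were clustered again. Clusters were named from marker lists, of which 1 gene was not analysed here. Single-cell shares were compared after thinning to 1500 UMIs by random draws without replacement (numpy 2.4.6). Doublet scores, used only for an alternative without likely doublets, came from scanpy 1.11.5.

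Counts were summed per set and cell group with at least 20 cells and fitted with edgeR 4.0.16 (TMM, filterByExpr, quasi-likelihood test, Benjamini-Hochberg over all genes, threshold 0.05), a procedure tested on simulated data. DESeq2 1.42.0, other filters, clusterings and sets left out were alternatives. Limits from counts of 0 used 3 counts and cover counting error only. Sets are not stated to be separate animals in the labels, so p-values may measure technical spread.

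Sets of the same number in both regions had correlated deviations in microglia-like cells (r = 0.579, 0.162, 0.554 and 0.214 for sets 1 to 4). Sets of unlike number had r from -0.528 to 0.213. The highest of these, thalamus set 3 with HPC set 2, was above the value for set 2, so the pairing is not borne out for that set. The numbers were treated as pairing the sets, a pairing that comes from these correlations and not from the labels. It was taken from the same counts that the fit with the block tests. In DAM-like cells the values for sets of the same number were 0.215, 0.0602, 0.151 and 0.113, and thalamus set 2 with HPC set 4 had 0.0725.

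The members and the gene lists were chosen with earlier results of these data known. Genes named were the 5 members, up to 5 pathway genes called in each direction with the largest change, those needed to read a count, and the 5 genes most correlated with each member. Genes named as called with the block, the split at 10 Spp1 UMIs and the fit without the cell cycle cluster were chosen after their values were seen.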

Additional observations from a re-analysis of the deposited data

Results flagged for a closer look

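A set of 4 was far from the other 3 in 10 of 70 groups. Chance alone gives about 1 in 20 for independent, normally distributed values. These groups share sets and cells, and some values are at or near 0, so that rate does not strictly apply and nothing is read from the count. The value given for each is the gap to the nearest set as a share of the whole range. For Spp1 it was thalamus set 1 that stood high in microglia-like (0.833), DAM-like (0.9), interferon-like (0.896) and macrophage- or monocyte-like cells (0.904). Thalamus set 1 also stood high for Gpnmb in interferon-like cells (0.919) and in the cluster led by MHC class II (0.87). In thalamus set 2, Lgals1 stood low in interferon-like cells (0.864). In interferon-like cells of the HPC, set 1 stood high for Spp1 (0.855), set 2 high for Gpnmb (1.0, the other sets at 0) and set 3 low for Cd44 (0.884).

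The cells that the filters removed, 2427 in the thalamus and 1824 in the HPC, entered no comparison. In those of the thalamus Spp1 was at 61.0, Gpnmb at 0.466, Lgals3 at 2.21, Lgals1 at 2.31 and Cd44 at 1.07 UMIs per 10000 over all sets. In those of the HPC Spp1 was at 2.59, Gpnmb at 0.105, Lgals3 at 0.84, Lgals1 at 1.68 and Cd44 at 1.03. Set by set, Spp1 was higher in the removed than in the kept cells, 1.56 to 2.63 times in the thalamus and 1.41 to 4.43 times in the HPC.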

How the results depend on the processing

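The number of pathway genes called in microglia-like cells, 5, was 17 with the replicate block, 8 with a 5% mitochondrial limit and 2 to 13 when 1 set was left out (2 without thalamus set 1, thalamus set 4, HPC set 2 or HPC set 3, 3 without HPC set 4 and 13 without HPC set 1). In DAM-like cells, 3 became 6 with the replicate block or without a filter on low counts, 5 with a 5% mitochondrial limit, 1 with DESeq2 or with equal numbers of cells drawn from every set, 0 without integration, and 1 to 5 when 1 set was left out (1 without thalamus set 1, HPC set 2 or HPC set 4, 5 without HPC set 1). In homeostatic-like cells, 0 became 2 with a 5% mitochondrial limit or without integration, 1 at resolution 1, and 0 to 1 with 1 set left out. The causes were not tested.

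Among the members, Spp1 kept its direction in every alternative run, with a log2 fold change of 4.10 to 5.61 in microglia-like cells, 1.82 to 2.98 in DAM-like cells and 4.72 to 6.12 in homeostatic-like cells. Gpnmb ranged from 2.66 to 3.78 in microglia-like and 0.38 to 1.87 in DAM-like cells. Lgals3 in microglia-like cells was 1.87 when cells were taken by a marker gate, and Lgals1 there was 0.84 to 1.72 when 1 set was left out and at its lowest, 0.76, with the marker gate. Without integration, Lgals3 (-0.16) and Lgals1 (-0.55) changed direction in DAM-like cells. Cd44 ranged from 0.50 to 1.07 in microglia-like cells and from -0.46 without integration to 0.04 without thalamus set 1 in DAM-like cells. Gpnmb, Lgals1 and Cd44 had 24 to 101 UMIs each in homeostatic-like cells, too few for a fold change.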

Other observations

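The kept cells in clusters without a class name, which numbered 376 in the thalamus and 424 in the HPC, had Spp1 at 4.35 to 21.6 UMIs per 10000 per thalamus set, against 0.0821 to 1.88 per HPC set. In these cells Lgals1 was at 1.35 to 2.35 and 1.41 to 2.41, and Cd44 at 0.933 to 1.32 and 0.750 to 1.25, at a median depth of 1520 to 2020 and 1436 to 1858 UMIs per cell.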
